A study of Mus musculus with 18 samples.

Results

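The 10 genes followed here in mouse palate mark endothelium, the cell layer that lines blood vessels: Pecam1, Cdh5, Kdr, Flt1, Tek, Tie1, Emcn, Esam, Vwf and Eng. They were found by symbol, as every probe set of the array whose annotation gives 1 symbol equal to one of these names. All 10 genes were measured, by 15 probe sets among 45037, and they are 10 of the 18193 genes on the array. The tissue was whole palate dissected at embryonic day 15.5 from C57BL/6J embryos whose sex was not determined, with 6 arrays per group in 3 groups: posterior palate of K14-Cre;Tgfbr2 fl/fl mutants, posterior palate of Tgfbr2 fl/fl controls, and anterior palate of Tgfbr2 fl/fl controls. Every group carried the floxed allele of Tgfbr2, a receptor for TGF-beta ligands, and the mutants had K14-Cre in addition, in which the promoter of an epithelial keratin drives the recombinase. Endothelium is therefore not the cell type in which that promoter drives the deletion. The study asked how palatal epithelium that lacks this signal acts on the muscle of the palate. Mutants and controls came from separate litters, the series describes 5 samples per group although 6 are labelled, and pooling of embryos is not stated, so the spread behind each p-value is that between these samples and may be technical.

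Endothelial cells grow, branch and survive under VEGF, which they sense through receptor tyrosine kinases, and settle into quiet vessels under angiopoietin signalling through the Tie receptors. Their junctions are held by VE-cadherin and by immunoglobulin-type adhesion molecules, and endoglin assists receptors of the TGF-beta and BMP family at their surface. ETS-family transcription factors, which bind DNA at a GGAA core, are known regulators of many endothelial genes.

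Promoter sequence from RefSeq (GRCm38.p6) was matched by symbol for 6 of the 10 genes, and 2 are shown because their windows lie wholly outside the annotated gene and because Eng is the gene called between genotypes. Each is the 250 bases before the start of the gene, read 5′ to 3′ on the strand of the gene, with every match to the ETS core, GGAA or its reverse complement TTCC, in capitals.
Eng, chr2:32646345-32646594, plus strand: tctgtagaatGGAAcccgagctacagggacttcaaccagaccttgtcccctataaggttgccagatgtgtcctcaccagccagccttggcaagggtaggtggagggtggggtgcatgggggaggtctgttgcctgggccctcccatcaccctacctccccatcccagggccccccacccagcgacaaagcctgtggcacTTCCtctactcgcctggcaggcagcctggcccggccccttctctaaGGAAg
Tie1, chr4:118489850-118490099, minus strand: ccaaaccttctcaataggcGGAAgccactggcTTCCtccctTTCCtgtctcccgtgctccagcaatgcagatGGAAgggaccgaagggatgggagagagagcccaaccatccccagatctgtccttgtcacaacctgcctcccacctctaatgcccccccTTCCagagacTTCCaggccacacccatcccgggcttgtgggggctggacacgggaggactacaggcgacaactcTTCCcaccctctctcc
The core was present in 6 of 6 promoters of the endothelial genes, with 3 matches in Eng, 7 in Tie1, 4 each in Emcn, Flt1 and Kdr, and 2 in Tek. A core this short was also present in 93.4% of all 32851 promoters of this length, with a median of 3 matches. The SMAD motif CAGAC, searched on both strands, was present in 1 of 6, Eng, at 2 places, and in 42.2% of all promoters. Neither the GATA motif GATAA nor the GC-rich SMAD motif GGCGCC was found in the 6 windows, and 22.6% and 9.59% of all promoters hold them. These matches describe letters in a window.

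Expression was given by the authors as RMA values on a log2 scale, on which a difference of 1 is a change by a factor of 2, and the brightest probe set stood for its gene. In posterior palate, Eng rose in mutants to 1.35 times its level in controls, and it was 1 of 10 endothelial genes called at an adjusted p under 0.05 over all genes, where 13.5% of all genes were called and 7.73% were called higher. With 4 array sets as a random block, none of the 10 was called (Eng limma adjusted p = 0.172), where 588 of 18193 genes were called. Kdr and Flt1, the VEGF receptors, stood 1.37 and 1.27 times higher in mutants without passing that test. The difference was positive for 10 of 10 genes, as it was for 58.3% of all genes, and for 9 of 10 after centring each array on its median or repeating the quantile normalization, when Emcn was negative. Its median over the 10 genes was 0.25, against 0.04 over all genes. Mutant and control posterior arrays overlapped for each of the 10 genes, where 6.55% of all genes had groups apart.

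**Figure D1:**
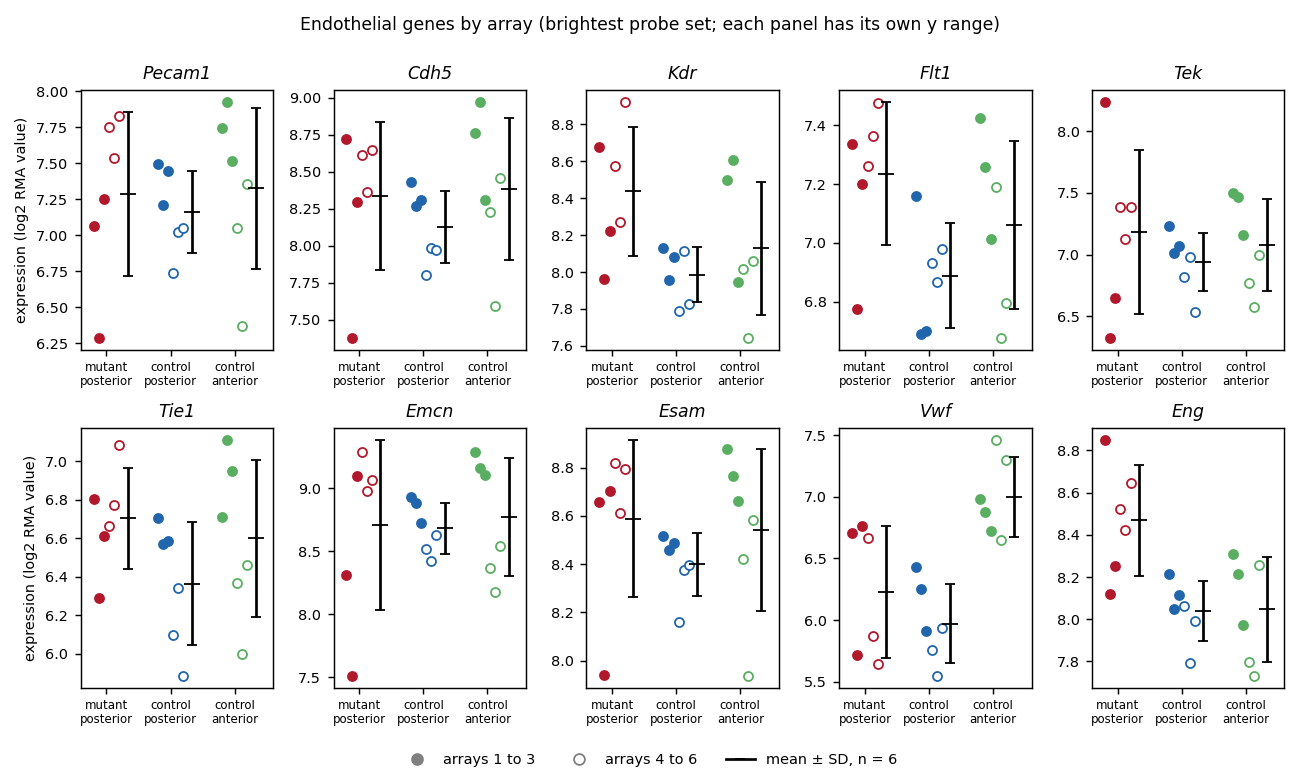
Each panel plots 1 endothelial gene (log2 RMA value on the y axis, with its own range) in the 6 mutant posterior, 6 control posterior and 6 control anterior arrays, with filled points for arrays 1 to 3, open points for arrays 4 to 6, and a bar for the mean ± SD. Eng lies between 8.12 and 8.85 in mutants, against 7.79 to 8.22 in control posterior arrays, and Vwf lies between 5.55 and 6.43 in control posterior arrays, against 6.65 to 7.46 in control anterior arrays.

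Eng encodes endoglin, a co-receptor for BMP and TGF-beta ligands on endothelial cells (gene on chromosome 2, GRCm38.p6 32646595 to 32682669). It lay at 8.12, 8.47 and 8.85 (lowest, median and highest log2 value) in mutant posterior arrays, against 7.79, 8.06 and 8.22 in control posterior arrays. All 6 mutant arrays lay above the control posterior mean and 5 of them above the highest control posterior array, so the groups overlapped by 1 mutant array. The mean was 8.47 ± 0.26 in mutants and 8.04 ± 0.14 in control posterior palate (SD, n = 6 each). The log2 difference was 0.43 (SE 0.13, 95% interval 0.17 to 0.69, limma adjusted p = 0.0303). A second, dimmer probe set of Eng differed by 0.32 in the same direction and was not called (limma adjusted p = 0.277 over all probe sets). The call was lost in 17 of 35 alternatives, the random block among them, over which the difference stayed between 0.32 and 0.52. The 35 include fits without a control anterior array, which leave this difference unchanged. Among fits without 1 compared array, the call was lost without mutant array 1 or 6 or control posterior array 2, 4, 5 or 6. Labelling spike-in controls lay at 6.79 to 8.28 in mutant arrays, against 8.77 to 10.2 in control posterior arrays, so that litter, labelling and genotype cannot be told apart.

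Kdr and Flt1 encode VEGF receptors, and Kdr had the largest difference of the 10 genes. Kdr encodes VEGFR2, the main signalling receptor for VEGF (chromosome 5, 75932827 to 75979072). It lay at 7.96, 8.42 and 8.92 in mutant posterior arrays, against 7.79, 8.02 and 8.13 in control posterior arrays. In words, 5 of 6 mutant arrays exceeded every control posterior array and mutant array 2 fell among them. The log2 difference of Kdr was 0.45 (SE 0.16, 95% interval 0.11 to 0.80, limma adjusted p = 0.0765).

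Flt1 encodes VEGFR1, which binds VEGF tightly and in its soluble form withholds it (chromosome 5, 147561604 to 147726438). Its values were 6.78, 7.30 and 7.48 in mutant posterior arrays, against 6.69, 6.90 and 7.16 in control posterior arrays. Again 5 mutant arrays were above the highest control posterior array. The log2 difference was 0.35 (SE 0.13, 95% interval 0.07 to 0.63, limma adjusted p = 0.0925), and its 3 dimmer probe sets differed by 0.24, 0.23 and 0.09. Unadjusted p-values under 0.05 were reached by 3 of 10 endothelial genes, Eng, Kdr and Flt1, against 28.0% of all genes. Without mutant array 2 all 3 genes were called, with limma adjusted p-values of 0.0126 for Eng, 0.029 for Kdr and 0.024 for Flt1. In that fit 2688 of 18193 genes were called, against 2449 with all arrays.

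Tek and Tie1 encode the Tie receptors, Tek being the receptor for angiopoietins and Tie1 its partner (both on chromosome 4, Tek from 94739086 to 94874976 and Tie1 from 118471191 to 118489849). Tek lay at 6.33, 7.25 and 8.24 in mutant posterior arrays, against 6.54, 7.00 and 7.23 in control posterior arrays. Tie1 lay at 6.29, 6.72 and 7.09 in mutant posterior arrays, against 5.89, 6.45 and 6.70 in control posterior arrays. The Tek values of the mutants reached both above and below the whole control range, while 3 mutant arrays of Tie1 exceeded the highest control posterior array and none fell below the lowest. Their log2 differences were 0.24 (SE 0.25) and 0.34 (SE 0.18), with limma adjusted p-values of 0.560 and 0.232.

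Pecam1, Cdh5, Esam and Emcn encode surface proteins of the vessel wall. PECAM-1 (chromosome 11, 106654213 to 106715281) is an adhesion molecule of endothelial contacts and is also carried by platelets and leukocytes, VE-cadherin (Cdh5, chromosome 8, 104101613 to 104144504) is the cadherin of their adherens junctions, ESAM (chromosome 9, 37528089 to 37538319) is an adhesion molecule of the tight junction, and endomucin (Emcn, chromosome 3, 137341062 to 137431069) is a sialomucin of capillaries and veins. Pecam1 lay at 6.29, 7.40 and 7.83 in mutant posterior arrays, against 6.74, 7.13 and 7.49 in control posterior arrays. Cdh5 lay at 7.38, 8.49 and 8.72 in mutants, against 7.80, 8.13 and 8.43 in control posterior arrays. For both genes the mutant range covered the control range on either side.
Esam lay at 7.94, 8.68 and 8.82 in mutant posterior arrays, against 8.16, 8.43 and 8.52 in control posterior arrays. Emcn lay at 7.51, 9.02 and 9.29 in mutants, against 8.42, 8.68 and 8.93 in control posterior arrays. For Esam 1 mutant array and for Emcn 2 lay below every control posterior array, and the others lay above. Log2 differences were 0.13 (SE 0.26) for Pecam1, 0.21 (SE 0.23) for Cdh5, 0.19 (SE 0.15) for Esam and 0.03 (SE 0.26) for Emcn. None was called, with limma adjusted p-values of 0.794, 0.593, 0.453 and 0.961, and the interval for Emcn, -0.52 to 0.57, allows differences of either sign larger than that of Eng.

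Vwf encodes von Willebrand factor, the adhesive plasma protein that endothelium and megakaryocytes store (chromosome 6, 125552948 to 125686679). It lay at 5.64, 6.27 and 6.76 in mutant posterior arrays, against 5.55, 5.92 and 6.43 in control posterior arrays. The mutant arrays split into 3 above and 3 within the control posterior range. The log2 difference of 0.26 (SE 0.22) was not called (limma adjusted p = 0.477). Counting every probe set, 15 of 15 were higher in mutants on average and 1 of 15 was called, where 10.7% of all probe sets were called. Of the 15 probe sets, 3 lay below the middle of the array on average, and they belonged to Cdh5 and Flt1.

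**Figure D2:**
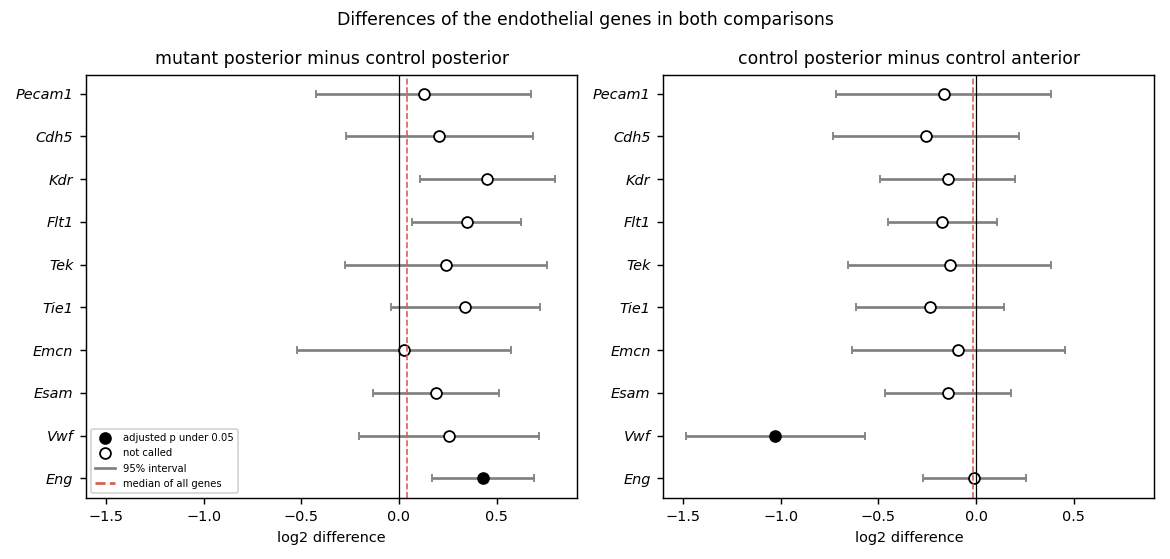
Points give the log2 difference of each endothelial gene, mutant posterior minus control posterior on the left and control posterior minus control anterior on the right, with 95% intervals, filled where the limma adjusted p was under 0.05 and with a dashed line at the median of all genes. Eng at 0.43 is the filled point on the left and Vwf at -1.03 the filled point on the right.

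Within controls, Vwf fell in posterior palate to a level 2.04 times lower than in anterior palate, and it was 1 of 10 endothelial genes called, where 3.82% of all genes were called and 2.12% were called lower. The other 9 genes differed by -0.01 (Eng) to -0.26 (Cdh5) without passing the test. The difference was negative for 10 of 10 genes, as it was for 54.1% of all genes, and for 9 of 10 after centring each array on its median or repeating the quantile normalization, when Eng was positive. Its median over the 10 genes was -0.16, against -0.02 over all genes. Both comparisons share the 6 control posterior arrays, so a low or high control posterior level enters both with opposite sign.

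Vwf lay at 5.55, 5.92 and 6.43 in control posterior arrays, against 6.65, 6.93 and 7.46 in control anterior arrays. All 6 posterior arrays lay below every anterior array, a separation seen in 1 of 10 endothelial genes and in 6.32% of all genes, with 3.67% lower. The mean was 5.97 ± 0.32 in control posterior palate and 7.00 ± 0.32 in control anterior palate (SD, n = 6 each). The log2 difference was -1.03 (SE 0.22, 95% interval -1.49 to -0.57, limma adjusted p = 0.0115). Array medians over all probe sets lay between 5.74 and 5.90, so the posterior values of Vwf were near the middle of the array, and no detection calls were used here. The call held in 31 of 34 alternatives and in each of the 18 fits that left out 1 array, where the highest limma adjusted p was 0.033. Fits without a mutant array are among them and leave this difference unchanged. Within control arrays 1 to 3 the difference was -0.66 and within arrays 4 to 6 it was -1.39, neither called with 3 arrays per group (limma adjusted p = 0.602 and 0.195). In those fits only 82 and 16 of 18193 genes were called.

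Markers of the other cells that make von Willebrand factor were looked at beside it. Of 9 measured megakaryocyte and platelet genes, none was called in either comparison in the fit without a block, with a median log2 difference of 0.14 between control posterior and control anterior palate, opposite in sign to Vwf. Their mean level was 6.36 to 6.48 in control posterior arrays, against 6.07 to 6.36 in control anterior arrays. Clec1b, a receptor of the platelet lineage, differed by 0.18 and Gp6, the platelet collagen receptor, by 0.24. At unadjusted p under 0.05 the count was 1 of 9, against 19.8% of all genes. With the replicate block 1 of 9 was called higher in posterior palate, Clec1b, where 17.3% of all genes were called. The part of the platelet genes in the difference of Vwf was not tested.

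The remaining genes gave these values in controls. The VEGF receptor Kdr lay at 7.79, 8.02 and 8.13 in posterior arrays, against 7.64, 8.04 and 8.60 in anterior arrays, a log2 difference of -0.14 (limma adjusted p = 0.674). Flt1 lay at 6.69, 6.90 and 7.16 in posterior arrays, against 6.68, 7.10 and 7.43 in anterior arrays (-0.17, limma adjusted p = 0.506). Posterior arrays of both genes fell inside the anterior range. A second Flt1 probe set differed by -0.47 and was not called over all probe sets (limma adjusted p = 0.253), and the dimmest one by 0.09 the other way.
Eng was at 7.79, 8.06 and 8.22 in posterior arrays, against 7.73, 8.09 and 8.31 in anterior arrays, with a difference of -0.01 and an interval of -0.27 to 0.25. Tek and Tie1 differed by -0.14 and -0.24, each with 1 posterior array below all anterior arrays. Pecam1, Cdh5, Esam and Emcn differed by -0.17, -0.26, -0.14 and -0.09, with the posterior arrays inside the anterior range for all 4. At unadjusted p under 0.05 the count was also 1 of 10, Vwf, against 19.8% of all genes. By probe set, 1 of 15 was called and 1 of 15 was positive, where 1.86% of all probe sets were called.

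Set in order of their group means, 6 genes (Kdr, Flt1, Tek, Tie1, Esam and Eng) were highest in mutant posterior, then control anterior, then control posterior palate. The other 4 (Pecam1, Cdh5, Emcn and Vwf) were highest in control anterior, then mutant posterior, then control posterior palate. Control posterior palate was lowest for all 10. Apart from Eng between mutant and control posterior palate and Vwf between control posterior and control anterior palate, no pair of groups that was tested passed the adjusted threshold, and mutant posterior and control anterior arrays were not tested against each other. Since fewer endothelial cells and less RNA per cell give the same signal in whole tissue, they cannot be told apart.

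The endothelial genes varied more between arrays of 1 group than most genes did. Their median SD was 0.42 over the mutant posterior arrays, 0.22 over the control posterior arrays and 0.36 over the control anterior arrays, against 0.23, 0.13 and 0.15 over all genes. Much of this spread was shared. Mutant array 2 was the lowest mutant array for 9 of 10 genes, control posterior array 1 the highest of its group for 10 of 10, and control anterior array 5 the lowest of its group for 10 of 10. The mean of the 10 genes was 7.03 in mutant array 2, against 7.70 to 7.95 in the other mutant arrays. In control posterior arrays it ran between 7.27 and 7.72, and in control anterior array 5 it was 7.14, against 7.57 to 8.04 in the other anterior arrays.

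Other tissue markers moved with these arrays. The mean of 10 mesenchyme genes was 11.4 in mutant array 2, the lowest of the mutant arrays, and 11.0 in control anterior array 5, the lowest of the anterior arrays. The mean of 13 basal and simple epithelial genes was 11.8 in mutant array 2 and 12.02 in control anterior array 5, the highest of each group. Mutant array 1 had the lowest epithelial mean of all, 9.07, against 11.0 or more in the others, and the highest muscle mean, 12.2. Without mutant array 1, Eng was not called (limma adjusted p = 0.0644). Whether tissue makeup sets the level of the endothelial genes in an array was not tested.

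**Figure D3:**
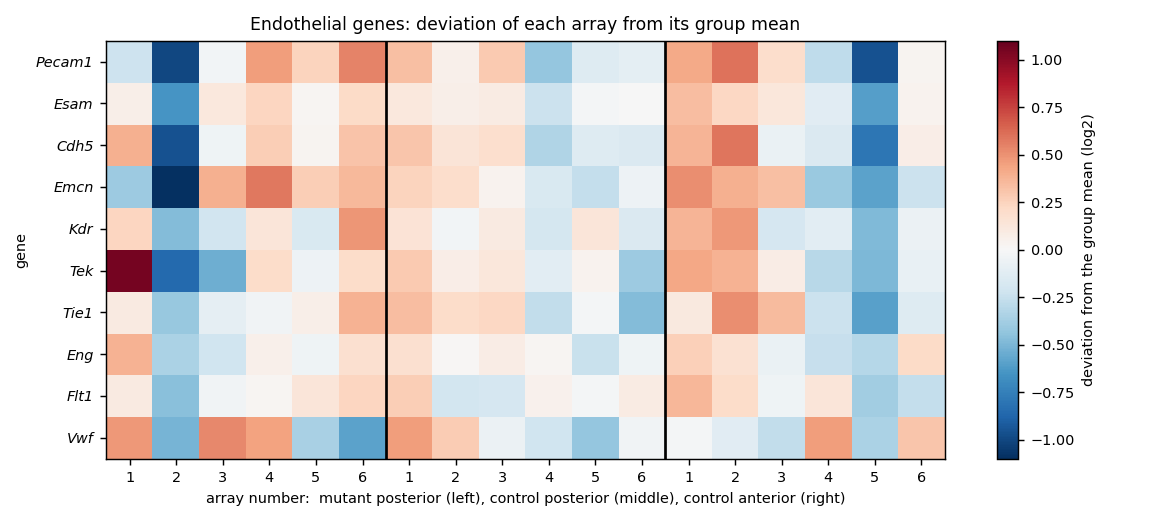
Each cell gives the deviation of 1 array from its group mean (log2, red above and blue below) for 1 endothelial gene, with mutant posterior arrays 1 to 6 on the left, control posterior arrays in the middle and control anterior arrays on the right. Mutant array 2 and control anterior array 5 are blue in nearly every gene, and Vwf at the bottom follows the other genes least.

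Deviations from the group mean were correlated over the 18 arrays, as a description of arrays that share tissue, labelling and scaling. Across the 45 pairs of endothelial genes Pearson's r ran between 0.06 and 0.94 with a median of 0.69, and 34 pairs exceeded 0.5. Cdh5 followed the mean of the other 9 genes most closely (r = 0.98), then Esam (0.93), Pecam1 (0.89) and Kdr (0.85). Tek, Eng, Tie1, Emcn and Flt1 had r between 0.71 and 0.78, and Vwf had 0.27. Over all other 18183 genes the median r with the mean of the 10 was 0.00 and the 95th percentile 0.678. Among 26 other endothelial surface and junction genes the median r was 0.64 and 12 exceeded that percentile.

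The 10 other genes with the highest r were taken with predicted genes passed over. They included Robo4, a guidance receptor of endothelium (0.968), Plxnd1, a semaphorin receptor (0.961), and Adgrf5, an adhesion receptor of endothelium (0.937). The others were Golm1 (0.941), a Golgi membrane protein, Rcn3 (0.942), Pdia5 (0.933), Rrbp1 (0.933) and Calu (0.929), which encode proteins of the endoplasmic reticulum and secretory path, and the matrix genes Col4a2 (0.931) and Col6a1 (0.927). Only 2 of these 10, Robo4 and Adgrf5, stood in the endothelial lists used here.

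Arrays 1 to 3 and 4 to 6 of each genotype formed sets by their spike-in controls. Endothelial levels in arrays 4 to 6 were higher than in arrays 1 to 3 for 9 of 10 genes in mutant posterior palate (median 0.29), and lower for 9 of 10 in control posterior (median -0.32) and in control anterior palate (median -0.52). Vwf was the exception in mutants (-0.33) and in control anterior palate (0.28), and Flt1 the exception in control posterior palate (0.08). What distinguishes the sets is not given by the labels.

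The other genes of the vascular system were read from lists, whose counts stand against the same backgrounds of 13.5% called between genotypes and 3.82% between regions. At unadjusted p under 0.05 the backgrounds were 28.0% and 19.8%. With the replicate number as a block, 17.3% of all genes were called between regions. With 4 array sets as a random block, 588 of 18193 genes were called between genotypes, against 2449 without it. In mutants, 3 receptors of the endoglin pathway and 4 pericyte genes were called higher, the first count being near the 13.5% of all genes. Of 19 measured endoglin pathway genes, 3 were called higher and none lower in mutant than in control posterior palate, with a median of 0.09. At unadjusted p under 0.05 the count was 4 of 19, against 28.0% of all genes. Tgfbr3, the co-receptor betaglycan, averaged 9.88 ± 0.27 in mutants and 9.02 ± 0.25 in control posterior palate, a difference of 0.86 with groups apart (limma adjusted p = 0.0019). Tgfbr2, the floxed gene, averaged 11.0 ± 0.27 in mutants and 10.5 ± 0.20 in control posterior palate, a difference of 0.55 (limma adjusted p = 0.00879). The signal is that of the whole tissue, and whether its probes lie in the deleted part was not examined, so it does not check the labels. Bmpr2, the type II receptor for BMPs, differed by 0.36 (limma adjusted p = 0.0295), a call kept in 17 of 35 alternatives. Over these its difference ran from 0.02 to 0.55. Acvrl1, which encodes ALK1, the endothelial receptor that works with endoglin, differed by 0.29 (limma adjusted p = 0.187).
With 4 array sets as a random block, Tgfbr2 and Tgfbr3 were called.
Between control posterior and control anterior palate none of the 19 was called, with 5 at unadjusted p under 0.05. With the replicate number as a block, which took the share of all genes called between regions to 17.3%, 5 of 19 were called lower, among them Smad6 (-0.34) and Smad7 (-0.20), the inhibitory SMADs.

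Among 14 VEGF and angiopoietin ligands and other receptors of the family, 1 was called higher in mutants and none lower. It was Ptprb, the phosphatase VE-PTP that acts on Tie2 and VE-cadherin. Ptprb averaged 6.80 ± 0.20 in mutant posterior palate and 6.16 ± 0.21 in control posterior palate (SD, n = 6 each), a difference of 0.64 with groups apart (limma adjusted p = 0.00744), and its call held in 34 of 35 alternatives. Angpt2, the angiopoietin that endothelium releases, differed by 0.55 without a call (limma adjusted p = 0.075). Vegfa, the main VEGF ligand, differed by -0.04 (limma adjusted p = 0.788) and Angpt1, the angiopoietin of perivascular cells, by -0.23 (limma adjusted p = 0.532), and both changed sign with other choices of probe set. Between control posterior and control anterior palate none of the 14 was called in the fit without a block. At unadjusted p under 0.05 the count was 2, against 19.8% of all genes. With the replicate block 2 were called lower, Ptprb (-0.38) and Angpt2 (-0.37), where 17.3% of all genes were called. In that comparison Vegfa differed by -0.11 and Angpt1 by -0.21.

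Of 26 other endothelial surface and junction genes, 2 were called higher and 2 lower in mutants, with a median of 0.17. Cd34, a sialomucin of endothelium and of other progenitors, differed by 0.59 and Mmrn2, an endothelial matrix protein, by 0.36. Plvap, the diaphragm protein of fenestrated capillaries, differed by -0.36 and Ctla2a by -0.78. Called endothelial genes thus pointed both ways. None of these 4 calls held with 4 array sets as a random block, where 588 genes were called over the whole array, against 2449 without it. The call of Plvap held in each of 18 fits that left out 1 array, among them fits without a control anterior array, which leave its difference unchanged. Without mutant array 2, 5 were called higher and 2 lower, where 2688 genes were called over the whole array.
In controls, 1 of 26 was called lower in posterior than in anterior palate, Podxl, the sialomucin podocalyxin (-0.45), a call kept in 12 of 34 alternatives. With the replicate block 3 of 26 were called lower, where 17.3% of all genes were called.

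Of 19 transcription factors with known roles in endothelium, 3 were called higher and 1 lower in mutants, with a median of 0.23. Klf2, a factor induced by flow, differed by 0.73, Mef2c by 0.60 and Nr2f2, a factor of venous identity, by 0.31, while Foxf1 differed by -0.51. Mef2c is also a factor of muscle, and Nr2f2 and Foxf1 are also made by mesenchyme. None of the 4 calls held with 4 array sets as a random block, and that of Nr2f2 held in 9 of 35 alternatives. In controls, Foxf1 (-0.69, limma adjusted p = 0.0174) and Ets2 (-0.39, limma adjusted p = 0.0371) were called lower in posterior than in anterior palate. With the replicate block 2 of 19 were called higher and 3 lower, where 17.3% of all genes were called.

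Arterial and venous genes came next. Of 13 arterial genes, 2 were called higher in mutants. Gja4, which encodes a gap junction protein of arterial endothelium, averaged 7.65 ± 0.23 in mutants and 6.99 ± 0.22 in control posterior palate, a difference of 0.66 with groups apart (limma adjusted p = 0.00461) that held in 32 of 35 alternatives. Unc5b, a guidance receptor, differed by 0.40 (limma adjusted p = 0.0336). Of 6 venous genes, Nr2f2 and Ephb4, the ephrin-B2 receptor (0.27, limma adjusted p = 0.0205), were called higher. None of these arterial and venous calls held with 4 array sets as a random block.
Between regions, Ackr1, the chemokine receptor of venules, averaged 7.09 ± 0.07 in control posterior palate and 7.78 ± 0.29 in control anterior palate, a difference of -0.68 with groups apart (limma adjusted p = 0.00472) that held in 32 of 34 alternatives. It was the 1 venous gene called in that comparison. None of the 13 arterial genes was called between regions, with 6 at unadjusted p under 0.05, against 19.8% of all genes. With the replicate block 1 was called higher, Efnb2 (0.40), and 4 lower, among them Sema3g (-0.55), where 17.3% of all genes were called. Of 6 lymphatic genes 1 was called between genotypes, Reln (0.90), whose call was lost without mutant array 1 and with 4 array sets as a random block, and none between regions, where Prox1 differed by -0.80 (limma adjusted p = 0.0987) and Pdpn by 0.24 (limma adjusted p = 0.117), both called with the replicate block.

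Pericytes and smooth muscle cells wrap the endothelial tube. Of 13 of their genes, 4 were called higher and none lower in mutants, and the median was 0.29. Each of the 4 had groups apart, where 6.55% of all genes did. The difference was negative for 2 of 13, Pdgfrb and Tagln, the lowest being Tagln at -0.49. Cspg4, the proteoglycan NG2 of pericytes, averaged 8.40 ± 0.39 in mutants and 7.51 ± 0.19 in control posterior palate, a difference of 0.88 (limma adjusted p = 0.00104) that held in 34 of 35 alternatives. Abcc9 and Kcnj8, the subunits of a potassium channel of pericytes, differed by 1.16 and 0.93, and Anpep, aminopeptidase N, by 0.71 (limma adjusted p = 0.0167, 0.0209 and 0.00427). With 4 array sets as a random block only Cspg4 of the 13 was called.
In controls, Des (1.89) and Acta2 (1.26), which skeletal and smooth muscle also express, were called higher in posterior than in anterior palate, the median was -0.15, and with the replicate block 3 others were called lower, Cspg4, Mcam and Rgs5. Skeletal muscle genes were called higher in posterior palate in 14 of 14, with a median of 3.91.

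**Figure D4:**
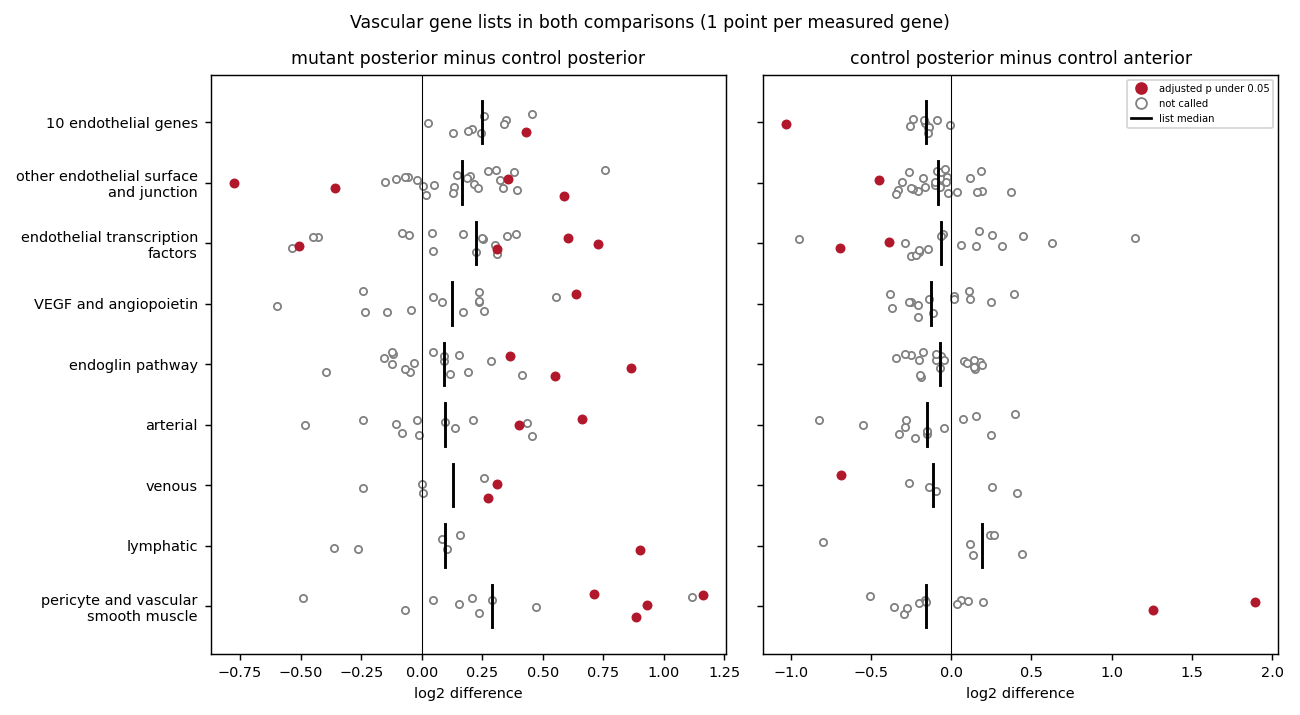
Points give the log2 difference of every measured gene in the 10 endothelial genes and the other vascular lists, mutant posterior minus control posterior on the left and control posterior minus control anterior on the right, filled where the limma adjusted p was under 0.05, with a bar at the list median. Filled points on the left lie on both sides of 0 in the surface and transcription factor lists and above 0 in the pericyte list, where 4 of 13 are filled.

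Cells that share some of these markers were listed as well. Of 14 macrophage and leukocyte genes, 2 were called higher in mutants (Csf1r 0.53 and Cx3cr1 0.37) and 2 lower (Cd52 -1.17 and C1qb -0.68), and their mean lay at 8.05 to 8.79 in mutant arrays, against 8.13 to 8.47 in control posterior arrays. The calls of Csf1r and Cx3cr1 were lost with 4 array sets as a random block, median centring or repeated quantile normalization, and those of Cd52 and C1qb were kept. In the region comparison C1qa (0.60) and C1qb (0.62) were called higher in control posterior than in control anterior palate. Of 10 red cell genes, 1 was called higher and 2 lower in mutants, led by the embryonic globin Hbb-y (-2.93), which was the one called with 4 array sets as a random block. Between regions Ank1 (0.93) was called higher in posterior palate, with Slc4a1 lower in the replicate block. None of 9 megakaryocyte genes was called between genotypes, nor any of 13 epithelial genes. At unadjusted p under 0.05 the counts were 1 of 9 and 2 of 13, against 28.0% of all genes. The difference was negative for 12 of 13 epithelial genes, with a median of -0.45, and -0.06 without mutant array 1. It was positive for 14 of 14 muscle genes, with a median of 0.76, and 2 of them were called. Of 10 mesenchyme genes 2 were called higher in mutants, Dcn (0.88) and Col1a2 (0.47), with a median of 0.33. With 4 array sets as a random block no muscle gene was called, and Dcn was the one mesenchyme gene. Their part in the differences of the endothelial genes was not tested.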

How the data were processed

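RNA was measured on 18 Affymetrix 1-colour arrays, grouped and numbered by their titles. The deposited log2 values were made by the authors with RMA (version not given), per the submitters' processing notes; detection calls and scanner files were not used here. RMA makes array distributions nearly alike, so much of a shift common to most genes is lost. Medians over all probe sets still lay at 5.87 to 5.90 in mutant arrays 1 to 3, against 5.74 to 5.80 in the other arrays. The median genotype difference over all genes was 0.0853 with mutant arrays 1 to 3 only and 0.0026 with arrays 4 to 6 only. Names came from the platform annotation: of 45037 probe sets tested, 34945 had 1 symbol, 932 several and 9160 were unlisted, and 64 control probe sets were left out. The brightest probe set over all arrays stood for its gene, with no filter on dim genes, giving 18193 genes. Differences were tested 2-sided with limma 3.58.1 and statmod 1.5.0, under R 4.3.3, in 1 fit over 3 groups with 15 residual degrees of freedom, with Benjamini-Hochberg adjustment over all genes and a threshold of 0.05. Array number limits the precision. The fit was tested on simulated data with independent noise and 1 SD per gene for all groups. The simulation held no array sets and no wider spread in mutants, so it cannot check the fit for these. No pair of arrays was identical, the highest correlation being 0.997. Plots used matplotlib 3.10.9 and Python 3.11.15.

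The 10 genes and the 14 other lists (191 of 197 listed genes measured) were chosen with earlier results of these data known. Named were all 10 genes; from each other list and comparison up to 4 called genes with the largest difference, or up to 2 of smallest p where no gene was called; Tgfbr2, Acvrl1, Vegfa, Angpt1 and Angpt2; and the 10 genes whose deviations followed the endothelial mean best. Predicted genes, those with Gm-number or Rik symbols, were passed over. Genes called only with the replicate block were chosen after seeing their values.

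Pairing by equal replicate numbers was checked by correlating deviations from group means across genes. For control posterior and control anterior arrays r was 0.111 to 0.430, over 0.1 in 6 of 6 pairs, which was taken as pairing. The equal number gave the best match in 3 of 6, and every best match lay within the same array set. A positive r therefore cannot tell pairing from shared array sets. For mutant and control posterior arrays r was -0.222 to 0.157, over 0.1 in 2 of 6, with the equal number best in 1 of 6. The pairing rests on the data, not on the labels. Alternatives were other probe set rules, a dim filter, other scalings and variance models, array weights, blocks, array sets, thresholds and leaving out each array. Leaving out an array of the group outside a comparison cannot change the differences of that comparison.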

Additional observations from a re-analysis of the deposited data

Results flagged for a closer look

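Among 45 groups of 6 arrays, 15 probe sets in 3 groups each, 3 held an array whose gap to its nearest neighbour, divided by the range of the group, exceeded 0.625, and chance gives about 1 in 20. In mutant array 2, Cdh5 stood at 7.38, with the next mutant array at 8.29, and Esam at 7.94, with the next at 8.61. In control posterior array 2 a dim probe set of Flt1, below the middle of the array, stood at 3.95, with the next array at 4.20.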

How the results depend on the processing

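The count of endothelial genes called between mutant and control posterior palate, 1 as reported, was 0 with the mean of probe sets, the most variable probe set, median centring, repeated quantile normalization, the replicate block (Eng limma adjusted p = 0.0605), 4 array sets as a random block, mutant arrays 1 to 3 only, control arrays 1 to 3 only, control arrays 4 to 6 only, an adjusted p under 0.01 and a difference of at least 0.5. Over the whole array 135 genes were called with control arrays 1 to 3 only and 4986 with mutant arrays 1 to 3 only. The other settings in this list gave 588 to 2858. The count was 3 (Eng, Flt1 and Kdr) with array weights and with mutant arrays 4 to 6 only. In these 3332 and 3318 of 18193 genes were called, against 2449 as reported. Leaving out 1 array gave 0 to 3. The count was 3 without mutant array 2, where 2688 genes were called over the whole array. It was 0 without mutant array 1 or 6 or control posterior array 2, 4, 5 or 6. The cause was not tested.

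Between control regions the count was 1 as reported, and 1 in all fits that left out 1 array. It was 0 with control arrays 1 to 3 only, control arrays 4 to 6 only and an adjusted p under 0.01. Over the whole array 82, 16 and 251 genes were called in these settings, against 695 as reported. A fixed set term over control arrays was added after seeing the data and kept the count of 1. It gave 3118 genes called over the whole array. The replicate block kept Vwf (limma adjusted p = 0.003) and raised the genes called over the whole array to 3156, against 695 without it. Pairing of the regions cannot be told from array sets in these fits. For genotype, where the numbers were not shown to pair either, the replicate block left 890 genes called, against 2449. Among the named vascular genes it left Ptprb, Tgfbr3, Gja4, Abcc9, Anpep and Cspg4. The median over the 10 genes ran between 0.08 and 0.45 for genotype and between -0.32 and 0.00 for region.

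Signs turned for genes that were not called. For genotype, Emcn was -0.0223 with median centring, -0.0112 with repeated quantile normalization, -0.37 with mutant arrays 1 to 3 only, -0.14 with control arrays 1 to 3 only and -0.0892 to 0.27 when 1 array was left out, Pecam1 was -0.29 and -0.10 in those array-set fits, and Cdh5 was -0.0018 with control arrays 1 to 3 only. For region, Eng was 0.0649 with median centring, 0.0739 with repeated quantile normalization and -0.0726 to 0.043 when 1 array was left out, and with control arrays 4 to 6 only Eng was 0.0196, Emcn 0.16, Flt1 0.0388, Kdr 0.0043 and Pecam1 0.0124; Emcn was -0.21 to 0.0119 when 1 array was left out. With the mean of probe sets Angpt1 was 0.17 and Vegfa 0.10 for genotype and Tgfbr2 0.046 for region, which was 0.0082 with median centring. With the most variable probe set Angpt1 was 0.57, Vegfa 0.25 and Nr2f2 -0.36 for genotype, and Acvrl1 -0.0812 and Vegfa 0.0907 for region. Vegfa was -0.0871 to 0.0127 for genotype when 1 array was left out, positive without mutant array 2.

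Over all genes, 57.5% of genotype calls were higher in mutants, 40.5% after median centring and 45.4% after repeated quantile normalization; for region the shares higher in posterior palate were 44.5%, 71.2% and 55.2%. Counts over all genes were 2449 for genotype and 695 for region, 1572 and 2151 with the compared groups alone, and 588 and 1322 with 4 array sets. Weak signal limits Vwf and the dim probe sets of Flt1 and Cdh5.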
